A study of Drosophila melanogaster with 50 samples.

Results

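The data concern 49 noncoding genes of *Drosophila melanogaster*, 43 annotated as long noncoding RNA genes (lncRNA:) and 6 as antisense RNA genes (asRNA:). They were chosen by position: each shares at least 1 bp with a genomic region that carried more 23- to 29-nt RNA in ovaries after germline knockdown (GLKD) of *Kdm3*. Those regions were themselves selected on the ovary small RNA libraries, so the ovary 23- to 29-nt values of these genes describe the choice. Their deposited calls are printed as a description and are not read as a test. Of 59 such genes, 9 in the longest such region of arm 2L, around *tsh*, and *lncRNA:CR44357* were set aside. The 49 lie in 41 regions, 32 of which hold 1 of the genes, 7 hold 2 and 2 hold 3. The 5 gene tables list 17875 genes in all and 47 of the 49, and *lncRNA:CR46499* and *lncRNA:CR46533* had coordinates only. Below, lncRNA genes are written without their prefix. By arm, 18 genes were on X, 11 on 3L, 10 on 2L, 6 on 3R, 4 on 2R and 0 on 4.

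PIWI-interacting RNAs (piRNAs) are small RNAs that guide PIWI-clade Argonaute proteins to silence transposons in the animal germline. In the fly germline most of them are cut from long transcripts of genomic clusters read from both strands, which are packed in chromatin methylated at lysine 9 of histone H3 (H3K9me2 and H3K9me3) and bound by Rhino, a relative of heterochromatin protein 1. The Kdm3 protein removes methyl groups from histone H3. Long noncoding RNAs are transcripts with no recognized protein product, and an antisense RNA gene is read from the strand opposite to another gene.

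All flies had a *w1118* background. *Kdm3* GLKD females carried a germline GAL4 driver and a UAS short hairpin RNA against *Kdm3*, together with the *BX2* transgene cluster and a *P(lacZ)* target, and the controls of the ovary experiments were sisters that lacked the hairpin. Ovaries were taken whole, with germline and somatic cells, and only the germline expresses the hairpin. Ovary RNA and 23- to 29-nt RNA were compared in 3 libraries against 3. Embryos of 0 to 2 hours (23- to 29-nt RNA) and of 3 to 5 hours (23- to 29-nt RNA and RNA) came from *Kdm3* GLKD mothers or, as controls, from mothers with a mock hairpin against *w*, with 2 libraries in each group. In ovaries, H3K9me2 and H3K9me3 were profiled by ChIP-seq in 3 libraries of each genotype and Rhino in 2. The files hold 1 fold change with its standard error (SE) for each gene and comparison and 1 peak list for each mark and genotype, with no value for a single library, so neither the spread between libraries nor the depth of each library could be shown. Positive log2 fold changes mean more RNA with *Kdm3* GLKD, and the base mean is the average normalized count of a gene across the libraries compared. *Kdm3* RNA itself had a log2 fold change of -1.29 (SE 0.14, adjusted p = 3.84e-18) in ovaries and -2.93 (SE 0.44, adjusted p = 2.75e-09) in embryos.

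The Rhino peaks over these genes in *Kdm3* GLKD ovaries are shown first by sequence, because none of the 49 genes had a Rhino peak in control ovaries. The lines give the plus strand from 50 bases before to 50 bases after the summit of the most significant peak, for the 5 genes with the most significant peaks on the arms X, 3L and 3R, from the RefSeq sequence of genome release 6. Capitals mark the words GAGG and GGGG on either strand (CCTC and CCCC when read on the plus strand), 2 G-rich words that can overlap each other.
lncRNA:CR32773: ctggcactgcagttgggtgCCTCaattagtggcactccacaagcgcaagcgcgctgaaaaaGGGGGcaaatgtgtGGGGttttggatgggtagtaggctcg
lncRNA:CR46499: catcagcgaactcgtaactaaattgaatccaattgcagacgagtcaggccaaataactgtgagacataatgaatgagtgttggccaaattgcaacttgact
asRNA:CR45960: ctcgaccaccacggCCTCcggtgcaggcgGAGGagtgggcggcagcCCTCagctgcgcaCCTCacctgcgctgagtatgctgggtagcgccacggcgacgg
lncRNA:enrr: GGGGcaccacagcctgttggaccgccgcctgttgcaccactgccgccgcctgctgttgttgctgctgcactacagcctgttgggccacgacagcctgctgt
lncRNA:CR45580: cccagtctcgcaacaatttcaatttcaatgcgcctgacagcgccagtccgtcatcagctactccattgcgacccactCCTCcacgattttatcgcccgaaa
These windows lie at chrX:4405760-4405860 in an intron of *CR32773*, at chrX:4382069-4382169 in an exon of *CR46499*, at chr3L:22274701-22274801 in exons of both *asRNA:CR45960* and *Srpk79D*, at chrX:518883-518983 in introns of *enrr* and *arg* and an exon of *elav*, and at chr3R:4896792-4896892 in the exon of *CR45580*.

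The *CR46499* window held neither word, and the *CR32773* window held the most GGGG, with 3 matches counted with overlap. Over the highest Rhino peak of each of the 17 genes with such a peak, GAGG occurred in 8 windows (47.1%) and GGGG in 12 (70.6%). These 17 include genes on 2R, and some of the summits lie outside the gene, as for *CR45597*. They were picked as the most significant peak over each gene, while the sets of all peaks hold weak peaks as well. The shares are therefore not like for like. Among all 1882 Rhino peaks of *Kdm3* GLKD ovaries the shares were 59.6% and 43.3%, and among the 467 peaks of control ovaries 58.7% and 40.9%. On X, 3L and 3R alone the shares were 60.3% and 46.3% of 1192 peaks and 62.1% and 41.6% of 293. Windows of the same length placed every 1000 bases on X, 3L and 3R held the words in 37.0% and 26.4% of 83519 cases. The windows differed in composition as well, with a median of 53.5% G and C at these 17 peaks, 51.5% at all peaks of *Kdm3* GLKD ovaries and 42.6% in the evenly spaced windows. A match is a description of the letters and no test was made of it.

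Most of the 49 genes were short. Their median length was 770 bp, with a range of 241 bp (*CR44705*) to 223710 bp (*CR32773*), against a median of 717 bp for the 2383 lncRNA: and asRNA: genes outside the regions. *CR32773* (chrX:4387676-4611385, minus strand) and *CR44997* (chrX:22657324-22797682, plus strand, 140359 bp) were by far the longest. A single exon made up 19 of the genes. 39 lay wholly inside a region, and the overlap was smallest for *CR44966*, with 100 of its 813 bases in a region and an ovary 23- to 29-nt log2 fold change of 1.97, and for *asRNA:CR45162*, with 142 of 542 bases and 1.59. Just outside a region lay *CR45957* at 86 bp, *CR33987* at 208 bp and *CR45292* at 747 bp, with ovary 23- to 29-nt log2 fold changes of 1.10, 2.04 and 0.10.

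By their median, the genes lay nearer to the centromere than other noncoding genes. The median distance from the centromere-side end of the arm was 6509 kb, against 14519 kb for 2356 noncoding genes outside the regions on the same 5 arms, and 46.9% of them (23 of 49) lay within 6000 kb of that end, against 13.1% (309). Annotated transposon sequence was present in 6 of the genes (12.2%), against 3.73% of the noncoding genes outside the regions. It made up 29.02% of *CR44997*, 10.7% of *CR46202*, 4.83% of *asRNA:CR43426*, 2.70% of *CR45082*, 1.03% of *yar* and 0.04% of *CR32773*. No base was shared with another annotated gene for 26 of the 49 (53.1%), close to the 50.6% among noncoding genes outside the regions. Of the other 23, 16 lay wholly inside another gene, 17 shared bases with a gene on the opposite strand and 9 with a gene on the same strand, and 10 shared exon bases. How reads on shared bases were assigned is not given in the sources used here, so the reads of these 23 genes and of their overlapping partners cannot be told apart.

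In ovary 23- to 29-nt RNA, the comparison that chose the regions, all 47 listed genes had a positive log2 fold change. Of the 43 with an adjusted p, 32 (74.4%) were past 0.05 and higher and 0 were lower. Over all 11390 genes tested, 9.41% were called higher and 3.89% lower at that adjusted p. At an unadjusted p under 0.05 in the deposited DESeq2 comparison, 0 of the listed genes were lower as well. The choice of the regions fixed this count, and nothing is read from it. The median log2 fold change was 2.61, against 2.96 for the 72 protein-coding genes of the same regions and 0.22 for the noncoding genes outside. The largest values were 5.66 (SE 0.14) for *CR32773*, 5.08 (SE 0.62) for *CR45659*, 4.54 (SE 0.50) for *asRNA:CR43426*, 4.41 (SE 0.65) for *CR45580* and 4.19 (SE 0.42) for *CR45127*, and 13 genes were at 3 or more. Levels varied far more than fold changes, since *CR32773* had a base mean of 5487 and the median of the 43 genes was 6.75. The genes past 0.05 with the smallest values among those with a base mean of at least 10 were *CR44731* at 1.33 (SE 0.45), *enrr* at 2.07 (SE 0.41), *asRNA:CR43614* at 2.66 (SE 0.26), *CR45597* at 2.75 (SE 0.53) and *CR45082* at 2.83 (SE 0.21).

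*CR44997* stood at both ends of the list. It had the highest 23- to 29-nt base mean of the list, 25674, and the smallest log2 fold change, 0.25 (SE 0.10), and 30000 of its bases lie in 3 of the regions, at chrX:22693000-22702000, chrX:22719000-22731000 and chrX:22786000-22795000.

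**Figure D1:**
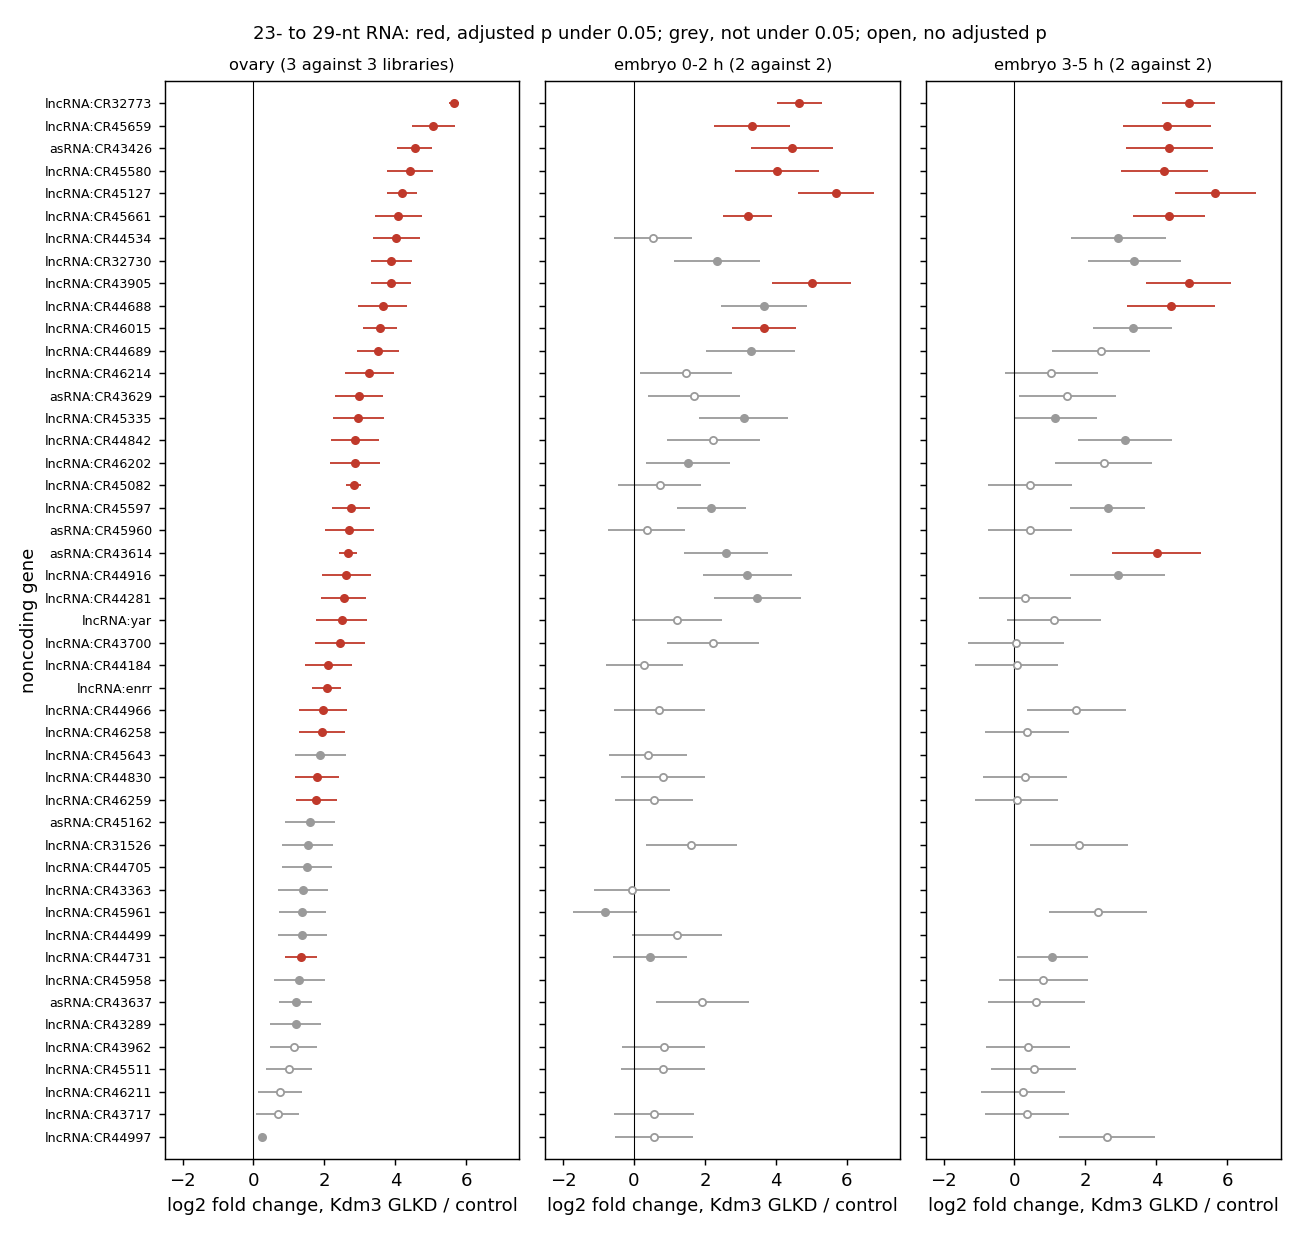
Log2 fold change (x axis, *Kdm3* GLKD over control) of 23- to 29-nt RNA for the 47 listed genes (y axis, in the order of the ovary values) in ovaries, 0- to 2-hour embryos and 3- to 5-hour embryos, with bars of 1 standard error, red for an adjusted p under 0.05, grey for one that is not and open symbols for genes with no adjusted p. All 47 ovary values lie right of 0, and 10 genes have a red embryo value, all of them right of 0.

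23- to 29-nt RNA of 10 of the 47 listed genes, in 7 of the regions, was more abundant in embryos of *Kdm3* GLKD mothers, measured in libraries that had no part in choosing the regions. At 0 to 2 hours 19 of the 47 had an adjusted p, 21 had none and 7 were listed at 0, and at 3 to 5 hours these numbers were 17, 23 and 7. At 0 to 2 hours 8 of the 19 rose and 0 fell, where 3.27% and 1.68% of all 4715 genes tested did. At 3 to 5 hours 9 of the 17 rose and 0 fell, where 3.28% and 2.18% of 4450 did. A gene nearly absent from the controls gets an adjusted p only through its reads in the *Kdm3* GLKD libraries, so these counts among tested genes depend on the outcome and nothing is read from them for the whole list. At an unadjusted p under 0.05 in the deposited DESeq2 comparisons, 15 of the 40 above 0 were higher and 0 lower at each age. Over all genes at that threshold, 446 were higher and 288 lower at 0 to 2 hours, where 9421 were above 0. At 3 to 5 hours 426 were higher and 363 lower, where 10086 were above 0.

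Over all genes of each list with a value above 0, tested or not, the median log2 fold changes at the earlier and the later age were 1.65 and 1.78 for the 40 noncoding genes, 2.32 and 2.50 for the protein-coding genes of the regions, and 0.21 and 0.06 for the noncoding genes outside. Of the 2383 noncoding genes outside, only 453 and 535 were above 0. A gene absent from the controls is above 0 only through its reads in the *Kdm3* GLKD libraries, so these medians also depend on the outcome. Among tested genes alone they were 3.29 and 4.01, 2.71 and 2.88, and -0.34 and -0.20, so the order of the first pair of lists and the sign of the last depended on which genes were taken.

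The same 7 genes rose at both ages: *CR45127*, *CR43905*, *CR45659*, *asRNA:CR43426*, *CR45661*, *CR45580* and *CR32773*. The 2 genes inside *jing*, which encodes a zinc-finger transcription factor, had the largest changes. *CR45127* (chr2R:6508895-6510295) had a log2 fold change of 5.71 (SE 1.07, base mean 29.1, adjusted p = 1.07e-05) at 0 to 2 hours and 5.67 (SE 1.14, base mean 23.5, adjusted p = 5.9e-05) at 3 to 5 hours. *CR43905* (chr2R:6532595-6533595) had 5.01 (SE 1.11, base mean 17.2) and 4.92 (SE 1.20, base mean 13.3). The differences between the ages were far below these standard errors, and the ages were not tested against each other. *CR32773* had 4.66 (SE 0.63, adjusted p = 4.74e-11) and 4.91 (SE 0.75, adjusted p = 1.45e-08) and the highest base means of the list in embryos, 66.8 and 48.6. The genes that overlap these 3 rose too. *bi*, wholly inside *CR32773*, had 6.63 and 6.97 with base means of 143 and 116. *jing* had 2.27 and 2.25 with base means of 78.0 and 61.0. Reads of the noncoding genes and of these partners cannot be told apart.

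*asRNA:CR43426* had 4.46 (SE 1.15, base mean 11.5) and 4.36 (SE 1.23, base mean 8.68), *CR45661* had 3.21 (SE 0.70, base mean 27.9) and 4.36 (SE 1.01, base mean 16.7), and *CR45659* and *CR45580* had base means of 7.84 to 10.0. *CR46015* passed the test at 0 to 2 hours alone (3.66, SE 0.90, adjusted p = 0.00224) and had 3.33 (SE 1.11, adjusted p = 0.0506) at 3 to 5 hours. *CR44688* and *asRNA:CR43614* passed at 3 to 5 hours alone, with 4.41 (SE 1.24) and 4.01 (SE 1.25), and had 3.67 (SE 1.21) and 2.60 (SE 1.18) at 0 to 2 hours. Of the genes called at each age, 4 shared no base with another gene. *enrr* was listed at 0 at both ages and also in embryo RNA. *elav*, which shares exon bases with it on the same strand, had a base mean of 4192 in embryo RNA. Since the assignment of reads on shared bases is not given, a value of 0 does not show that *enrr* RNA was absent.

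RNA of the genes changed in both directions in ovaries, and the calls were mostly upward. Of 28 genes with an adjusted p, 12 rose (42.9%, against 6.75% of all 11389 genes tested) and 3 fell (10.7%, against 8.51%). Noncoding genes outside the regions rose in 3.95% and fell in 6.12% of 784 cases, and protein-coding genes of the regions in 44.9% and 15.9% of 69. The base mean pools both genotypes, so a gene nearly silent in controls may get an adjusted p only through its *Kdm3* GLKD reads. These shares thus depend in part on the outcome. At an unadjusted p under 0.05 in the deposited DESeq2 comparison, 18 of the 47 listed genes were higher and 3 lower. Over all genes, 1385 were higher and 1561 lower, where 15649 were above 0. The median log2 fold change was 0.28 over the 28 and 0.13 over the 47 listed, against -0.00 over all genes tested. No adjusted p was given for the other 19 genes, whose base means reached at most 4.56 (*CR44689*), and for the 8 with a base mean under 1 the log2 fold changes were between 0.01 and 0.05, with standard errors of at most 0.06. Such small standard errors at so few counts show that the deposited ovary values are drawn toward 0. Over all genes tested, the largest standard error was 0.20 in ovary RNA and 1.08 in 3- to 5-hour embryo RNA. Sizes of fold changes and of their errors are therefore not compared between these 2 sets.

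*CR45580* (chr3R:4896417-4897287) rose most, by a log2 fold change of 1.63 (SE 0.20, base mean 47.5, adjusted p = 8.14e-15), and shares no base with another gene. *enrr* had 1.37 (SE 0.19, base mean 72.6, adjusted p = 3.15e-11) and *CR43962*, which also shares no base, 1.09 (SE 0.20, base mean 30.1, adjusted p = 6.13e-07). *asRNA:CR43426* had 0.89 (SE 0.20), *CR45127* 0.83 (SE 0.18), *CR45659* 0.70 (SE 0.16), *CR46214* 0.66 (SE 0.17), *CR45335* 0.56 (SE 0.15), *CR43905* 0.55 (SE 0.17) and *CR44688* 0.44 (SE 0.16). *CR43962* had a log2 fold change of 1.13 (SE 0.67) for ovary 23- to 29-nt RNA, with no adjusted p. 6 of the 12 genes that rose share no base with another gene.

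In ovaries the longest genes had the highest RNA base means of the list. *CR32773* had a base mean of 15774 and rose by 0.59 (SE 0.05, adjusted p = 5.25e-27), and *CR44997* had a base mean of 1104 and rose by 0.52 (SE 0.09, adjusted p = 9.93e-07). The span of *CR32773* holds 12 other genes with a summed base mean of 10676, and their reads and its own cannot be told apart. The 3 genes that fell were *yar*, which lies between *yellow* and *achaete* and has been linked to sleep, at -0.83 (SE 0.19, base mean 76.9, adjusted p = 0.000176), *CR44966* at -0.73 (SE 0.19, base mean 62.4, adjusted p = 0.00224) and *CR44842* at -0.64 (SE 0.19, base mean 25.2, adjusted p = 0.00641). In ovary 23- to 29-nt RNA these 3 had log2 fold changes of 2.48, 1.97 and 2.87. All 47 listed genes were positive in that comparison, which chose the regions, so nothing is read from this. In 3- to 5-hour embryo RNA, *CR32773* and *CR44997* had base means of 47.1 and 5.74. Whether reads over introns were counted alike in ovaries and embryos is not given in the sources used here, so these levels are not compared.

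**Figure D2:**
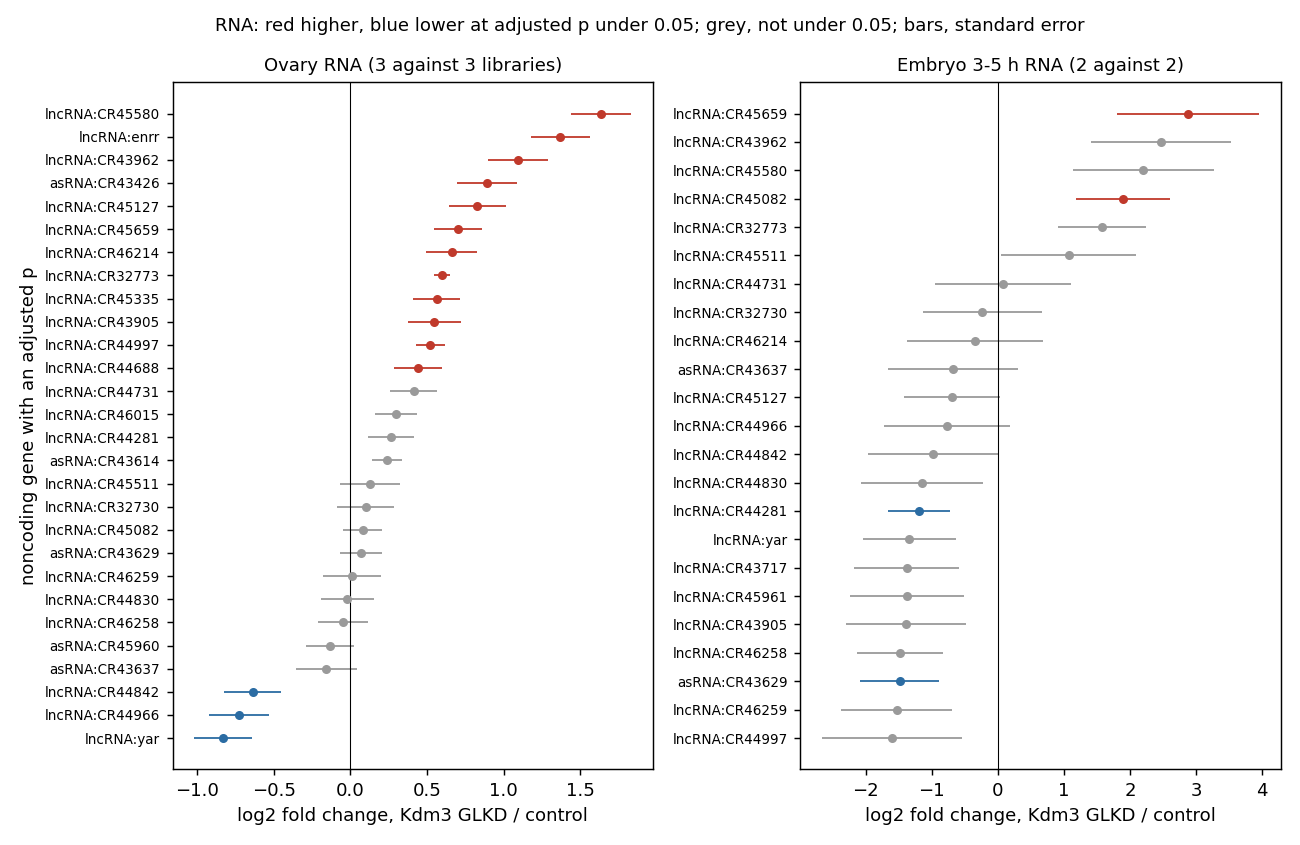
Log2 fold change (x axis, *Kdm3* GLKD over control) of RNA for the genes with an adjusted p (y axis), 28 in ovaries on the left and 23 in 3- to 5-hour embryos on the right, with bars of 1 standard error, red for higher and blue for lower at an adjusted p under 0.05. 12 ovary values are red and 3 blue, while in embryos 2 are red and 2 blue and the bars are several times longer.

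For 16 of the genes that overlap another, both the gene and its main partner, the gene sharing most of its bases, had an adjusted p in ovary RNA. In 5 of these pairs both passed in the same direction, in 2 only the noncoding gene passed, in 5 only the partner and in 4 neither. A partner passed for 5 of the 7 noncoding genes that passed and for 5 of the 9 that did not. *bi*, which encodes the T-box transcription factor also called optomotor-blind, lies wholly inside *CR32773* on the opposite strand and rose by 4.27 (adjusted p = 4.88e-301), against 0.59 for *CR32773*. *bi* was the single one of the 12 genes inside *CR32773* that was called higher, for RNA as well as for 23- to 29-nt RNA. These 12 genes had a summed base mean of 10676 for RNA and 1846 for 23- to 29-nt RNA, set beside 15774 and 5487 for *CR32773* itself. *jing* rose by 1.21 (adjusted p = 7.49e-91), with *CR45127* and *CR43905* on its opposite strand. Both genes that contain *enrr* rose, *arg*, the arginase gene, by 1.22 (adjusted p = 1.63e-33) and *elav*, which encodes a neuronal RNA-binding protein, by 1.11 (adjusted p = 1.17e-08), and *elav* shares exon bases with *enrr*. *Ptp61F*, a tyrosine phosphatase gene around *CR44842*, fell by 0.18 (adjusted p = 0.0169).

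Where the noncoding gene alone passed, *CG32816*, around *yar*, had -0.19 (adjusted p = 0.618), and *CG32462*, opposite *asRNA:CR43426*, 0.23 (adjusted p = 0.359). The partner alone passed for *ptc*, *Cph*, *CG31522*, *Mct1* and *Srpk79D*. *Srpk79D*, a kinase gene of splicing factors that contains *asRNA:CR45960*, rose by 1.20 (adjusted p = 2.72e-10), while *asRNA:CR45960* had -0.13 (SE 0.16, adjusted p = 0.688).

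**Figure D3:**
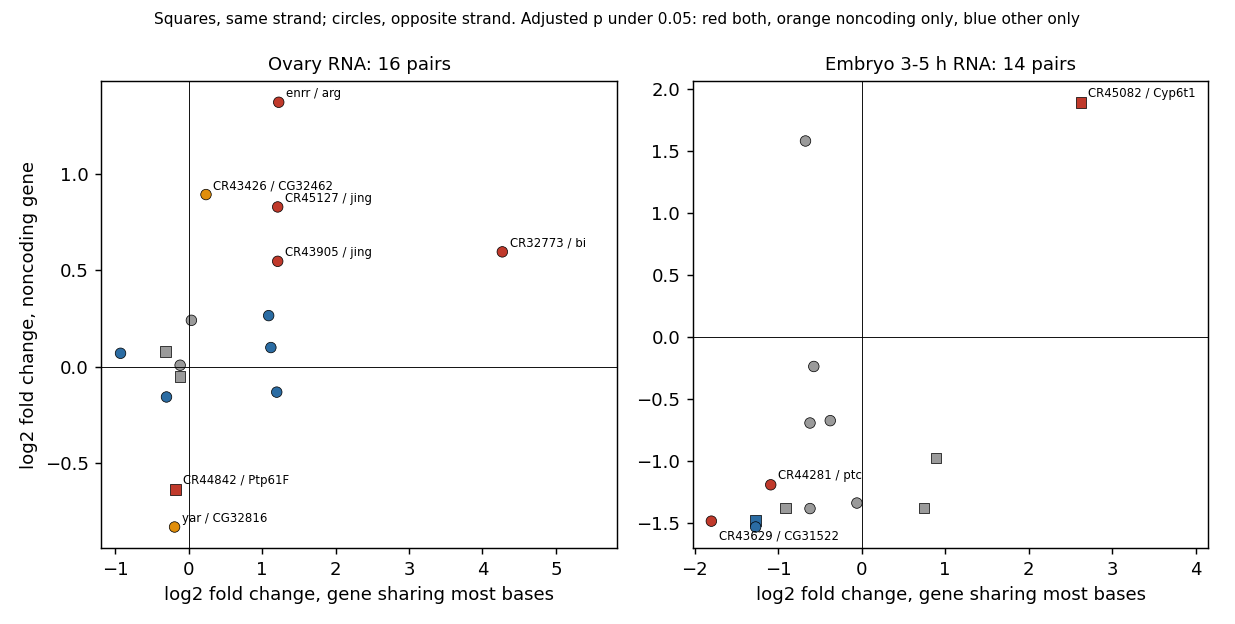
Log2 fold change of RNA for each noncoding gene (y axis) against that of the gene sharing most of its bases (x axis), for 16 pairs in ovaries and 14 in 3- to 5-hour embryos, with squares for the same strand, circles for opposite strands and names where the noncoding gene passed an adjusted p of 0.05. *CR32773* and *bi*, at 0.59 and 4.27, lie farthest to the right in ovaries, and the 3 named embryo pairs passed together.

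RNA of the genes in 3- to 5-hour embryos gave few calls, with 2 of 23 genes higher and 2 lower (8.7% each), against 16.9% and 14.0% of all 11782 genes tested. The median log2 fold change of the 23 was -0.77, against -1.04 for tested noncoding genes outside the regions, -0.88 for those coding for protein in the regions and -0.08 for all genes. Over all genes above 0 the medians were -0.06, -0.43, -0.65 and -0.22 in the same order. Of the protein-coding genes of the regions, 4 of 58 were higher and 20 lower. *CR45659* rose by 2.88 (SE 1.07, adjusted p = 0.0291) at a base mean of 7.16 and shares no base with another gene. *CR45082* rose by 1.89 (SE 0.71, base mean 48.1, adjusted p = 0.0311), and the cytochrome P450 gene *Cyp6t1* inside it, on the same strand, by 2.63 (adjusted p = 0.000115). *asRNA:CR43629* fell by 1.48 (SE 0.60, base mean 73.2, adjusted p = 0.0445) with *CG31522*, which fell by 1.80 (adjusted p = 0.00032), and *CR44281* fell by 1.19 (SE 0.47, base mean 299, adjusted p = 0.0412) with *ptc*, the Hedgehog receptor gene, which fell by 1.09 (adjusted p = 0.0409). All 4 adjusted p-values lay between 0.02 and 0.05. *CR32773* had 1.58 (SE 0.66, adjusted p = 0.053) and a base mean of 47.1.

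Markers of stage moved in the same embryos. All 4 maternally loaded transcripts that were measured, *bcd*, *osk*, *smg* and *gcl*, were higher in progeny of *Kdm3* GLKD mothers, with log2 fold changes of 2.16 to 4.46, and 4 of 7 zygotic genes, *sna*, *twi*, *en* and *wg*, were lower, with the list between -1.45 and -0.12. The part of stage in the embryo RNA values was not tested. In ovaries, 1 of 4 germline markers was higher (*bam*, 0.49) and 1 of 5 follicle cell markers lower (*Cp36*, -0.85), while the 5 ranged from -0.85 to -0.07. Among genes of other tissues *elav* was higher and *Mhc* lower. Their part in the ovary values was not tested, and fewer cells of a type and less RNA per cell cannot be told apart in whole ovaries. Of 9 genes for Rhino, its partners, H3K9 methylation and Piwi with an adjusted p, *cuff* rose (0.55) and *rhi* and *wde* fell (-0.56 and -0.89) in ovary RNA.

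The chromatin over these genes differed between the peak lists. An H3K9me2 peak overlapped 9 of the 49 genes in control ovaries (18.4%, against 16.0% of 17810 placed genes) and 43 in *Kdm3* GLKD ovaries (87.8%, against 35.4%), and in the latter 33 genes were covered from end to end. H3K9me3 overlapped 5 in control ovaries (10.2%, against 10.9%) and 22 in *Kdm3* GLKD ovaries (44.9%, against 17.2%). Rhino overlapped 0 in control ovaries (against 0.303%) and 17 in *Kdm3* GLKD ovaries (34.7%, against 3.16%). Every gene with a peak in control ovaries had one of the same mark in *Kdm3* GLKD ovaries, so 34, 17 and 17 genes had a peak of H3K9me2, H3K9me3 and Rhino in *Kdm3* GLKD ovaries alone. At a fold enrichment of at least 2, H3K9me2 overlapped 7 genes in control and 7 in *Kdm3* GLKD ovaries and H3K9me3 4 and 2, while Rhino overlapped 0 and 13. Each list combines the libraries of a genotype in a way that is not given in the sources used here, so these are counts with no test, and the lists for *Kdm3* GLKD ovaries are longer in general, at 9564 against 3983 peaks of H3K9me2, 5282 against 2946 of H3K9me3 and 1882 against 467 of Rhino.

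Compared with the other lists, the 49 genes stood between their neighbors. Among the 2383 noncoding genes outside the regions, 25.5% had an H3K9me2 peak, 10.7% an H3K9me3 peak and 0.839% a Rhino peak in *Kdm3* GLKD ovaries. Among the 72 protein-coding genes of the same regions, 94.4%, 77.8% and 65.3% did. These are longer, with a median of 5693.5 bp, and a longer gene has more room for a peak.

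**Figure D4:**
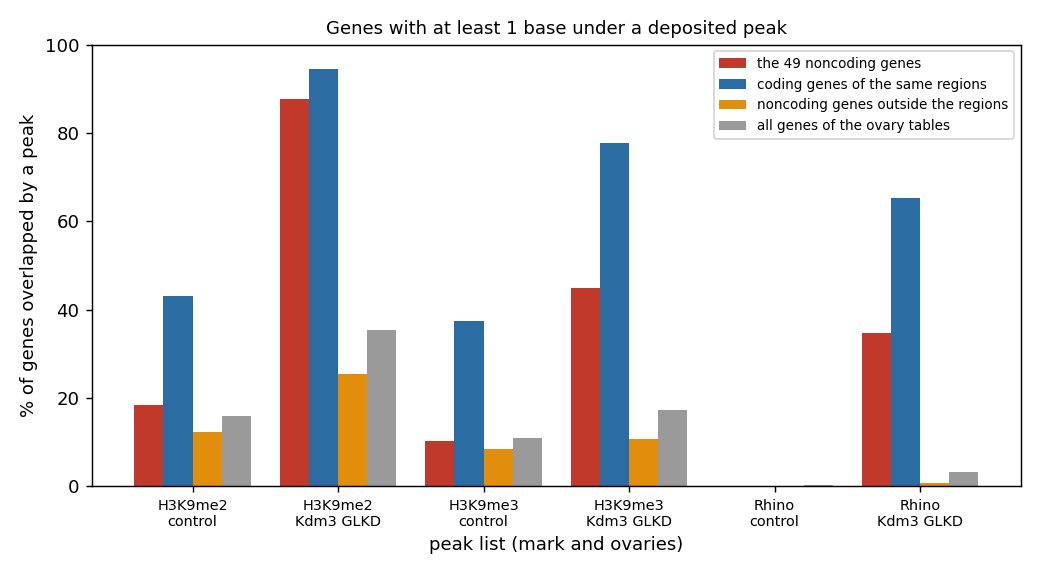
Percentage of genes with at least 1 base under a deposited peak (y axis) for each mark and genotype (x axis), for the 49 noncoding genes, the protein-coding genes of the same regions, the noncoding genes outside the regions and all placed genes of the ovary tables. For Rhino the red bar is 0 in control ovaries and 34.7% in *Kdm3* GLKD ovaries.

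The peaks over the genes in *Kdm3* GLKD ovaries were broad and of modest enrichment. The strongest H3K9me2 peak over each of the 43 genes had a fold enrichment over input of 1.36 to 2.08, with a median of 1.83, while the 9 genes marked in control ovaries had 1.41 to 2.98 there, with a median of 2.51. For H3K9me3 the range was 1.32 to 2.38 in *Kdm3* GLKD ovaries and 1.97 to 3.21 in control ovaries. Rhino peaks had 1.59 (*CR46015*) to 4.35 (*CR32773*), with a median of 2.31.

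Rhino peaks covered 113915 bases of the genes, of which 90608 were in *CR32773*, 8918 in *CR46499*, 3497 in *enrr*, 2348 in *CR44997* and 1425 in *asRNA:CR45960*. *CR46499* (chrX:4373271-4383220) thus had 89.6% of its span under Rhino, with 9058 of its 9950 bases also under H3K9me3 and the whole gene under H3K9me2. It lies beside *CR32773* and *asRNA:CR43614* in the same region, chrX:4372000-4532000. The 17 genes with a Rhino peak lie in 16 regions, and 7 of them in 3 regions that hold more than 1 such gene.

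The marks came in 6 combinations in *Kdm3* GLKD ovaries. All 3 marks overlapped 12 genes, both H3K9 marks without Rhino 10, H3K9me2 alone 18, H3K9me2 with Rhino 3 (*asRNA:CR45960*, *CR45659* and *CR45580*), Rhino alone 2 (*CR46015* and *CR44966*) and none 4 (*CR43717*, *CR46258*, *CR44731* and *CR43962*). *CR43962* had therefore no peak of any mark in either genotype and yet rose in ovary RNA, and *CR44731* had none, with an ovary 23- to 29-nt log2 fold change of 1.33. The H3K9me2 cover of *CR44997* was 58951 bases in control and 35168 in *Kdm3* GLKD ovaries, and its H3K9me3 cover 28332 and 57024. *CR43363* also had less H3K9me2 cover in *Kdm3* GLKD ovaries, 534 bases against 641. *CR45597*, *CR43363* and *CR45961* were covered by H3K9me2 from end to end already in control ovaries.

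**Figure D5:**
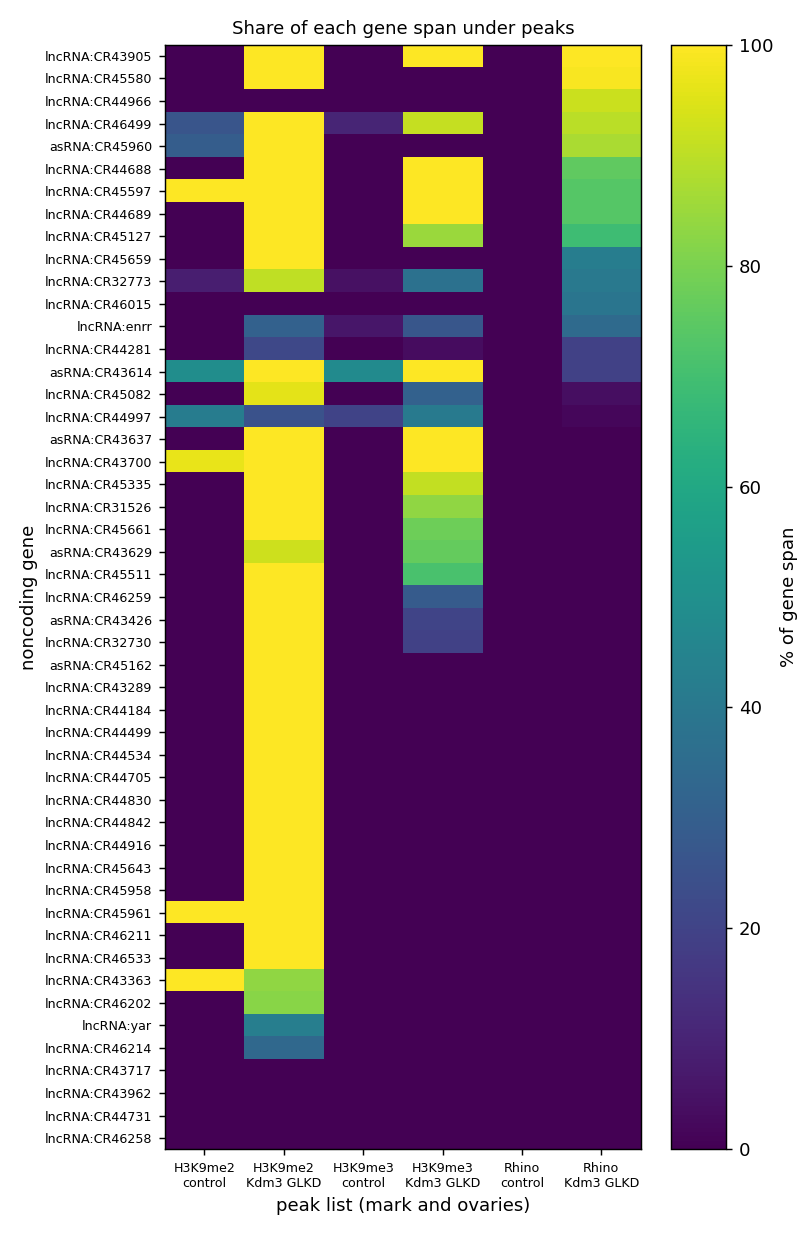
Percentage of each gene's span under peaks (color, 0 to 100%) for the 49 genes (y axis) and the 6 peak lists (x axis), in the order of Rhino cover in *Kdm3* GLKD ovaries, then of the H3K9 marks. The Rhino column of control ovaries is 0 for all 49 genes, and 33 genes are covered wholly by H3K9me2 in *Kdm3* GLKD ovaries.

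The genes with a Rhino peak and those without are described side by side, with no test. In ovary RNA 8 of 14 tested genes with a Rhino peak rose and 1 fell, and 4 of 14 without one rose and 2 fell. In 23- to 29-nt RNA of 3- to 5-hour embryos 7 of 9 and 2 of 8 tested genes rose, and at 0 to 2 hours 6 of 11 and 2 of 8. Over all genes above 0, tested or not, the median log2 fold changes with and without a Rhino peak were 0.37 and 0.04 in ovary RNA, 3.33 and 1.07 in 3- to 5-hour 23- to 29-nt RNA and 3.32 and 1.20 at 0 to 2 hours. Being tested or above 0 in embryo 23- to 29-nt RNA depends on reads in the *Kdm3* GLKD libraries, so nothing is read from these embryo values. In ovary RNA 14 of the 17 genes with a Rhino peak and 14 of the 32 without were tested, with medians of 0.48 and 0.08. Ovary RNA values of genes with few counts are drawn toward 0. The genes with a Rhino peak also include the longest, *CR32773* and *CR44997*. The split in ovary RNA is therefore not like for like, and nothing is read from it either. The genes are not replicates, and 7 of the 17 with a Rhino peak lie in 3 regions. Of the 10 genes with more 23- to 29-nt RNA at either embryo age, 8 had a Rhino peak in *Kdm3* GLKD ovaries, and *asRNA:CR43426* and *CR45661* had none. Over the whole list 17 of 49 genes (34.7%) had one. The 10 genes lie in only 7 regions, and their calls depend on reads in the *Kdm3* GLKD libraries, so nothing is read from this count. In ovaries the 23- to 29-nt medians were 3.17 and 1.79, from the comparison that chose the regions.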

How the data were processed

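The regions came from the supplement of the study, where bins that gained 23- to 29-nt RNA after *Kdm3* GLKD were joined. Genes were placed with the Ensembl 115 annotation of genome release 6 and belonged to a region if they shared at least 1 bp. The members and lists were chosen with earlier results of these data known.

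The authors aligned reads to annotated genes of release 6 with Bowtie, counted them with featureCounts (for 23- to 29-nt RNA, unique matches) and fitted *Kdm3* GLKD against control with DESeq2. The base mean, a signal of normalized counts, the log2 fold change, its standard error, and the p-value, raw or adjusted, are the authors' deposited values, since the tables hold comparisons alone. The authors mapped ChIP-seq reads with BWA 0.7.17.4, removed duplicates with Picard 2.18.2.1 and called peaks against input with MACS2 2.1.1.20160309.6, narrow for Rhino and broad for H3K9me2 and H3K9me3. The fold ratio over input and the -log10 q-value of a peak are deposited values. Other deposited columns were not used.

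A gene counted as called at an adjusted p under 0.05, and as tested where an adjusted p was listed. Lists were described by counts and medians beside those of all genes. Overlaps were counted on merged peaks in Python 3.11.15 with pandas 2.3.3 and numpy 2.4.6, and the functions were tested on simulated data. The embryo tables have no header, so their column order was taken from the ovary tables and their direction (*Kdm3* GLKD over *w* GLKD) from the methods of the study, and *Kdm3* is lower in the embryo RNA table read this way. The genes named were, for each table, the 5 with the largest and the 5 with the smallest log2 fold change among called genes whose base mean reached 10, all that passed in embryo RNA or fell in ovary RNA, the 5 with the most Rhino bases, and the gene sharing most bases with each. Others were named after their values were seen, among them *CR44688*, *CR45335*, *CR46214*, *CR46202*, *CR43363*, *CR45961* and the genes with no peak. Alternatives were other thresholds of p, fold change, base mean, peak q and peak fold, a cover of at least 10% of the span, and members wholly inside a region or sharing no base. Markers not matched in the tables are not reported here.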

Additional observations from a re-analysis of the deposited data

How the results depend on the processing

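No paired analysis was possible because the files hold no value per library. For the same reason no library could be left out and no other normalization or filter could be fitted. Of 66 counts under other settings, 40 stayed within 1.5 times the reported count. With a base mean of at least 10, the genes called higher numbered 16 in place of 32 in ovary 23- to 29-nt RNA, 4 in place of 9 in 3- to 5-hour 23- to 29-nt RNA and 1 in place of 2 in embryo RNA. With a log2 fold change of 1 or more in size, ovary RNA kept 3 calls of 12 higher and 0 of 3 lower. The deposited ovary values are drawn toward 0, so fewer pass such a cut. At an adjusted p under 0.01, 3- to 5-hour 23- to 29-nt RNA had 4 in place of 9 and embryo RNA 0 in place of 2 higher and 0 in place of 2 lower. At an unadjusted p under 0.05, embryo 23- to 29-nt RNA had 15 at each age, in place of 8 and 9, and embryo RNA 5 higher.

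Other settings change the genes counted. The 26 genes that share no base gave 17 higher in ovary 23- to 29-nt RNA, 6 higher and 1 lower in ovary RNA, 4 higher in 23- to 29-nt RNA at each embryo age, and 1 higher and 0 lower in embryo RNA. The 39 genes wholly inside a region gave 1 lower in ovary RNA, 1 higher in embryo RNA, 1 with an H3K9me3 peak in control ovaries and 11 with a Rhino peak in *Kdm3* GLKD ovaries. With a peak fold of at least 2, 7 genes kept an H3K9me2 peak in place of 43 and 2 an H3K9me3 peak in place of 22 in *Kdm3* GLKD ovaries, while 7 of 9 and 4 of 5 kept them in control ovaries, so the difference in H3K9me2 ended and that in H3K9me3 turned. With a -log10 q of at least 5, 8 kept the latter, and with a cover of at least 10% of the span 3 of 5 kept an H3K9me3 peak in control ovaries. Low read numbers limit most of these genes, whose median base mean was 6.75 in ovary 23- to 29-nt RNA and 26.5 in ovary RNA.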
